A study of Mus musculus with 2 samples.

Results

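Xcl1, Xcr1, Ccl1 and Ccr8 are 4 of the 27998 genes counted in skin leukocytes of mice treated with house dust mite, and they form the ligand and receptor of 2 chemokine pairs. They were picked by symbol from the gene list because earlier work on these data had shown their pattern, so their levels are a description with no test. Each was read in every barcode kept as a cell, across classes of cells gated on marker genes that include none of the 4. The mice were C57Bl/6, either IL31RAKO (a knockout of the alpha chain of the IL-31 receptor) or wild type (WT), and both groups had the same treatment. Over 3 weeks, shaved back skin received Biostir ointment, which contains house dust mite, on 2 days per week, and a 2% SDS solution came 2 hours before the ointment. Dorsal neck skin of 4 mice per genotype was pooled, live CD45+ cells were sorted, and 30000 cells per genotype entered 1 droplet library made with a 3′ kit. There is thus 1 library per genotype and no replicate, every difference is between 2 libraries, and no p-value is given. Values in brackets are 95% intervals for counting error, which leave out variation between mice and between cells. Summed levels cannot tell fewer cells of a type from less RNA per cell.

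XCL1 is a chemokine released by cytotoxic lymphocytes and NK cells. Its only known receptor, XCR1, marks the type 1 conventional dendritic cells (cDC1), which cross-present antigen to CD8 T cells. CCL1 is made by activated T cells and draws cells that carry CCR8, a receptor of skin-homing T cells, regulatory T cells and type 2 innate lymphoid cells (ILC2). In mice CCL8 is another ligand of CCR8.

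The libraries held 71333292 UMIs (unique molecular identifiers, which count captured RNA molecules) in IL31RAKO and 57000499 in WT. Cells kept numbered 14619 in IL31RAKO and 11934 in WT, with medians of 3181 and 2918.5 UMIs, and 247 cell barcodes occurred in both libraries. Levels are CPM (the UMIs of a gene relative to all UMIs of the cells summed, in parts per 1e6). The targeted gene Il31ra had 26 UMIs in IL31RAKO [17 to 38.1] and 11 in WT [5.49 to 19.7]. A 3′ tag can lie outside a deleted part, so these counts do not check the labels. T-like cells were 31.6% of cells in IL31RAKO and 46.3% in WT, and macrophage-like cells were 22.6% in IL31RAKO and 14.0% in WT. The sort and digest can set such shares. Cells that the CD45 sort should leave out were few, with keratinocyte-like cells at 0.404% in IL31RAKO and 0.838% in WT.

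Xcl1 (ENSMUSG00000026573) lies on the minus strand at chr1:164931644-164935522, where Gm20743, not among the counted genes, overlaps it on the opposite strand, and Ccl1 (ENSMUSG00000020702) on the minus strand at chr11:82176666-82179812. Xcr1 (ENSMUSG00000060509) lies on the minus strand at chr9:123852315-123862029 and Ccr8 (ENSMUSG00000042262) on the plus strand at chr9:120092133-120094906. Positions are those of RefSeq on GRCm38.p6. The 250 bases before the start of both ligand genes are shown, because these 2 genes reached the highest counts per cell and did so in some of the same cells. They run 5′ to 3′ on the strand of the gene, from RefSeq on GRCm38.p6, with capitals marking GGAAA on either strand, the core of NFAT sites. Xcl1 spans chr1:164935523-164935772 and Ccl1 chr11:82179813-82180062.
Xcl1: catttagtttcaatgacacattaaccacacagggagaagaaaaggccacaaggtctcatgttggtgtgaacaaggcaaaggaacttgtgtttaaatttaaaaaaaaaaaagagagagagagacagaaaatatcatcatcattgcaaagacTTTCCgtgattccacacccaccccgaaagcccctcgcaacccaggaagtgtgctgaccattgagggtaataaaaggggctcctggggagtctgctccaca
Ccl1: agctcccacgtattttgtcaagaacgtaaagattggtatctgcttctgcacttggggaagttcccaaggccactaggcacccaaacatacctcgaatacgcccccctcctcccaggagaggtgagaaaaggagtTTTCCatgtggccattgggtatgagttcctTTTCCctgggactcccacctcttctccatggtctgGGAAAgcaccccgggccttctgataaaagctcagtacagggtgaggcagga
The Ccl1 stretch held 3 matches to GGAAA and the Xcl1 stretch 1. Of 27025 such stretches before mouse genes, 55.6% held at least 1 match and 6.50% held 3 or more. The Xcr1 stretch held 1 match and the Ccr8 stretch 0. TGANTCA, the form of AP-1 sites, was in 0 of the 4 stretches and in 6.87% of all stretches. A match is a run of letters and not a site.

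Over all cells, both ligands were lower and both receptors higher in the IL31RAKO library. Xcl1 had 3998 UMIs (65.1 CPM) in IL31RAKO and 8576 (185 CPM) in WT, a ratio of 0.351 [0.338 to 0.365]. Ccl1 had 698 UMIs (11.4 CPM) in IL31RAKO and 1340 (29.0 CPM) in WT, a ratio of 0.392 [0.358 to 0.430]. Xcr1 had 1479 UMIs (24.1 CPM) in IL31RAKO and 679 (14.7 CPM) in WT, a ratio of 1.64 [1.5 to 1.8]. Ccr8 had 966 UMIs (15.7 CPM) in IL31RAKO and 602 (13 CPM) in WT, a ratio of 1.21 [1.09 to 1.34]. With a fold of 1.5 as the limit, 1 member was higher and 2 were lower, beside 6.79% of all genes higher and 9.84% lower. The choice of the members used this contrast, so nothing is read from that count.

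The mix of classes and the level within them bore differently on the 4 genes. In a calculation chosen after the data were seen, the WT level of each class was carried on the IL31RAKO mix of classes. The mix is the share of UMIs that each class held, so it joins the number of cells to their depth. For Xcr1 the mix alone gave a ratio of 1.56, and the IL31RAKO levels on the WT mix gave 1.06. The cDC1-like class, which held most Xcr1 UMIs, was 2.72% of cells in IL31RAKO and 2.15% in WT. Its median depth was 10757.5 UMIs in IL31RAKO and 7139 in WT, so the 1.56 is not a ratio of cell numbers. For Xcl1 the mix alone gave 0.521 and the levels alone 0.812. For Ccl1 the mix alone gave 0.540 and the levels alone 0.477. These Ccl1 values rest on few cells. In IL31RAKO 1 barcode scored as a doublet held 231 of the 262 Ccl1 UMIs of cells that passed gates of 2 lineages. The mix and level ratios of a gene need not multiply to its ratio over all cells. For Ccr8 the mix alone gave 0.834 and the levels alone 1.43, so that the mix and the levels moved it in opposite directions.

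**Figure D1:**
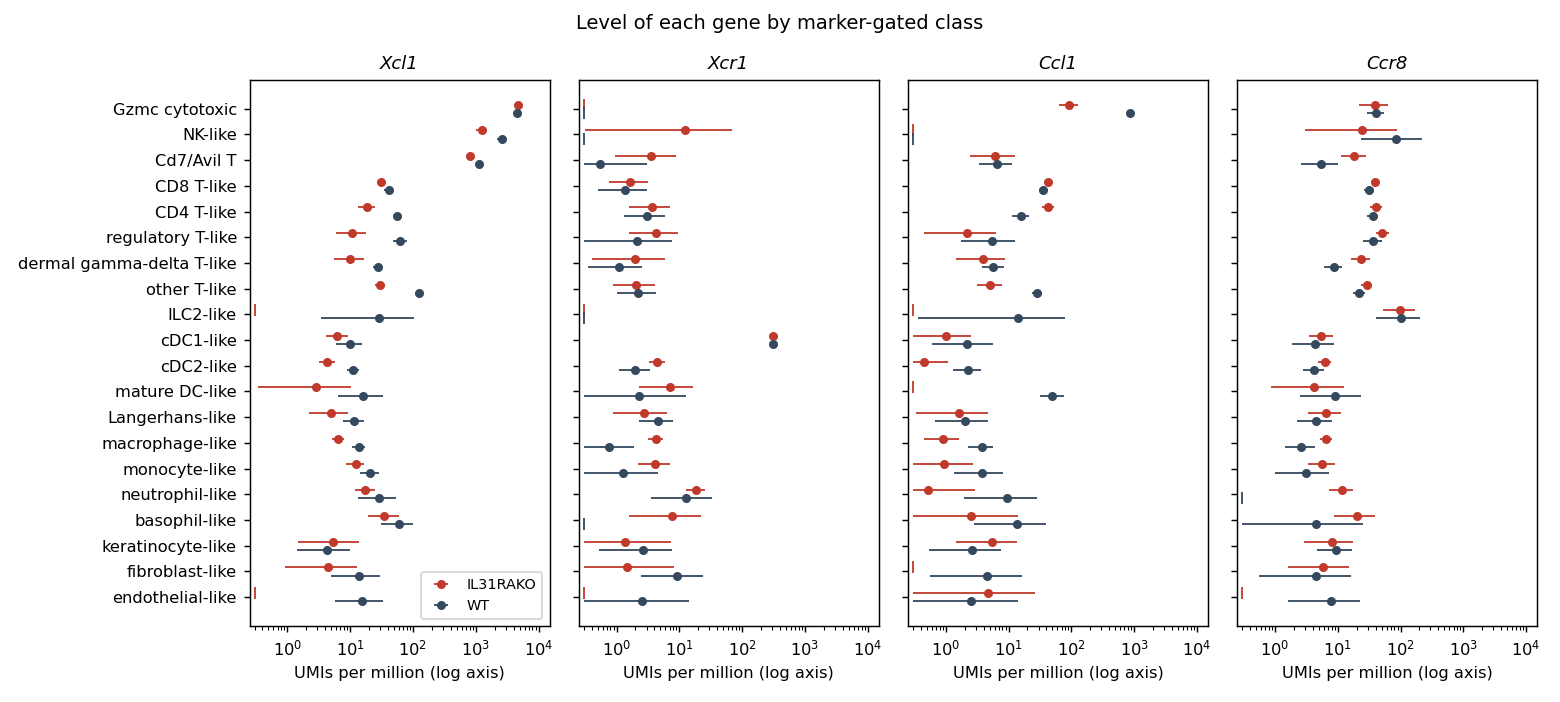
Level of each gene (CPM, log axis) in each marker-gated class, IL31RAKO above WT. Points are summed levels of the class, bars are exact 95% Poisson intervals clipped at the left edge, and ticks at the left edge mark 0 UMIs. Xcl1 was highest in the Gzmc class and Xcr1 stood at 306 CPM in IL31RAKO and 314 CPM in WT cDC1-like cells.

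Xcl1, the XCR1 ligand, had its highest level in a small class gated on the granzymes Gzmc to Gzmf, which also carried Ctsw and Cd160 among its leading genes. The class had 85 cells in IL31RAKO and 229 in WT, which is 0.581% and 1.92% of cells, and held 45.4% of all Xcl1 UMIs in IL31RAKO and 50.2% in WT. Its Xcl1 level was 4722 CPM in IL31RAKO and 4466 CPM in WT, a ratio of 1.06 [1.00 to 1.12]. A single IL31RAKO cell with 497 of its 5237 UMIs from Xcl1 held 12.4% of that library's Xcl1, while the top WT cell held 239 UMIs. Without the top cell of each library the level was 3478 CPM in IL31RAKO and 4256 CPM in WT, so the direction rests on 1 cell. Per cell, the median was 7 UMIs in IL31RAKO and 6 in WT, with upper quartiles of 22 and 20, so the spreads overlapped widely. With Leiden clusters in place of gates the ratio was 0.724.

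Most cells of that class held a Xcl1 UMI, 83.5% in IL31RAKO and 70.7% in WT. Thinned to 1000 UMIs per cell the shares were 67.9% in IL31RAKO and 65.5% in WT, with 1 and 26 shallower cells left out. The class mixed cells with and without Cd3, the signalling chains of the T cell receptor. Cells with no Cd3 UMI numbered 18 in IL31RAKO and 32 in WT. Their Xcl1 level was 9794 CPM in IL31RAKO and 5797 CPM in WT, but 497 of the 710 IL31RAKO UMIs were in the top cell. In cells with a Cd3 UMI the level was 3545 CPM in IL31RAKO and 4277 CPM in WT. In IL31RAKO the higher level of cells without Cd3, against WT and against cells with Cd3, rests on that 1 cell. The division by Cd3 was chosen after the data were seen.

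The next source was a T-like class gated on Cd7 and Avil, with 464 cells in IL31RAKO and 738 in WT. Its Xcl1 level was 823 CPM in IL31RAKO and 1107 CPM in WT, a ratio of 0.743 [0.687 to 0.803]. A Xcl1 UMI was in 50.6% of these cells in IL31RAKO and 61.0% in WT, and in 35.9% and 43.3% after thinning. The NK-like class had only 21 cells in IL31RAKO and 17 in WT, with Xcl1 at 1248 CPM and 2633 CPM and 35 and 44 UMIs in its top cells. It is too small for a ratio.

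In other classes Xcl1 was far lower. CD8 T-like cells had 31.3 CPM in IL31RAKO and 40.9 CPM in WT, a ratio of 0.767 [0.617 to 0.952]. Regulatory T-like cells had 15 UMIs in IL31RAKO and 58 in WT, but 28 of the WT UMIs were in 1 cell. Macrophage-like cells, which are not known as a source of XCL1, had 6.48 CPM in IL31RAKO and 13.6 CPM in WT, with a UMI in 1.94% and 4.30% of cells. Free RNA, read in barcodes with between 10 and 50 UMIs, had 94.7 CPM in IL31RAKO [56.1 to 150] and 85.0 CPM in WT [51.9 to 131], above the level of the CD8 T-like class in both libraries. Of 14 classes with a ratio, 13 lay below 1. Those ratios include classes at background level, and the part of free RNA in them was not tested.

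Ccl1, the CCR8 ligand, was held by very few cells. Only 116 cells in IL31RAKO and 199 in WT had a Ccl1 UMI, and 3 cells in IL31RAKO and 5 in WT held 50% of its UMIs. The top cell held 231 UMIs (33.1%) in IL31RAKO and 285 (21.3%) in WT. The 5 top WT cells, with 285, 196, 86, 66 and 57 UMIs, were all in the Gzmc class and held 187, 239, 97, 24 and 176 Xcl1 UMIs. The top IL31RAKO cell carried both Cd3 and macrophage genes, with 34 Cd3g, 21 Pf4 and 11 C1qa UMIs, held 62 Xcl1 UMIs and was among the barcodes scored as doublets. The next IL31RAKO cells, with 80, 70, 69 and 27 UMIs, were CD8 or CD4 T-like and held 0, 0, 2 and 0 Xcl1 UMIs.

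**Figure D2:**
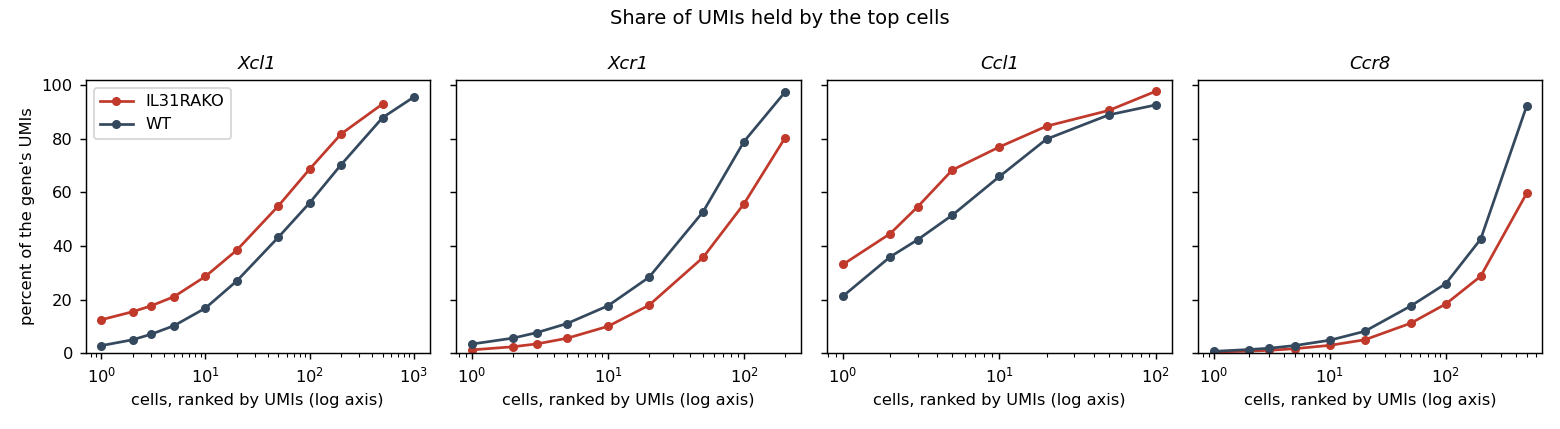
Percent of the UMIs of each gene held by its top cells, against the number of cells ranked by UMIs (log axis), for both libraries. Ccl1 rises steeply, with 33.1% in the top cell of IL31RAKO and 21.3% in that of WT, whereas the top Ccr8 cell holds 0.414% and 0.664%.

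In the Gzmc class Ccl1 had 35 UMIs (91.0 CPM) in IL31RAKO and 831 UMIs (862 CPM) in WT, a ratio of 0.106 [0.0730 to 0.148]. The ratio was 0.312 with equal weight for each cell, 0.0600 under 5% mitochondrial UMIs and 0.0429 with Leiden clusters, below 1 in each. In WT 10 cells held 95.9% of the Ccl1 UMIs of the class, so these ratios rest on few cells. A ratio without those 10 cells was not computed. The share of cells with a UMI was 10.6% (9 of 85) in IL31RAKO and 9.61% (22 of 229) in WT. The levels differed more than these shares, and the top cell held 16 UMIs in IL31RAKO and 285 in WT. Of the Ccl1-carrying cells of this class, 9 of 9 in IL31RAKO and 20 of 22 in WT also had a Xcl1 UMI.

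**Figure D3:**
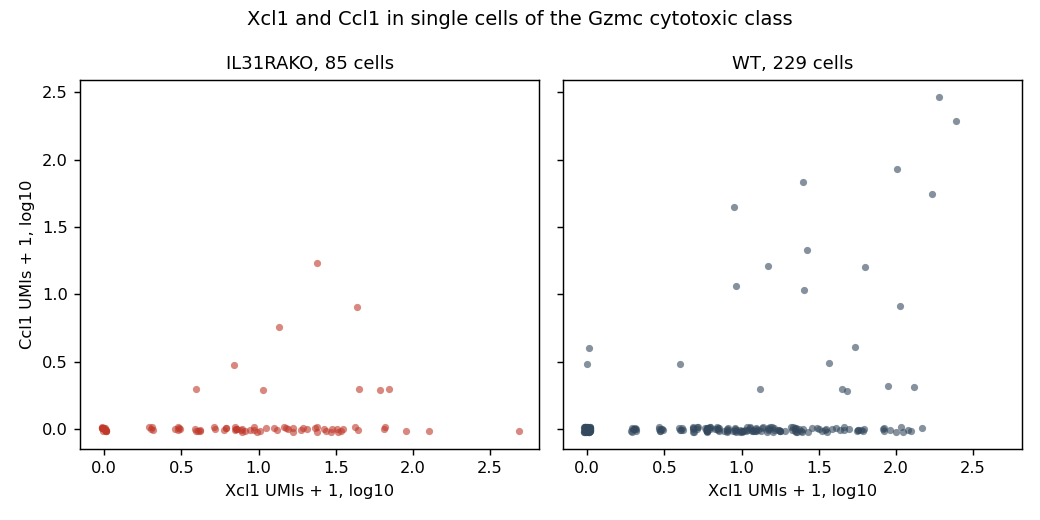
Xcl1 against Ccl1 UMIs (each plus 1, log10, with a small random shift) in single cells of the Gzmc class, IL31RAKO left and WT right. Cells with many UMIs of both genes are seen in WT, up to 285 Ccl1 UMIs, while the IL31RAKO cells reach 16. The class had 229 cells in WT and 85 in IL31RAKO, so the highest cells come from unequal numbers.

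Outside that class the direction differed between classes. Of 8 classes with a ratio, the Gzmc class included, 5 were past 1.5-fold lower and 1 higher. Other T-like cells, which passed no T subset gate, had 20 Ccl1 UMIs (5.12 CPM) in IL31RAKO and 115 (28.5 CPM) in WT, a ratio of 0.180 [0.106 to 0.290], and 4.10 CPM and 15.9 CPM without the top cells. Macrophage-like cells had 0.913 CPM in IL31RAKO and 3.72 CPM in WT, cDC2-like cells 0.458 and 2.28 CPM, and mature DC-like cells 0 UMIs in IL31RAKO and 22 in WT, 18 of them in 1 cell. CD8 T-like cells had 231 Ccl1 UMIs (42.6 CPM) in IL31RAKO and 156 (36.0 CPM) in WT, a ratio of 1.18 [0.960 to 1.46]. CD4 T-like cells had 94 UMIs in IL31RAKO, of which 69 in 1 cell, and 41 in WT, of which 17 in 1 cell. Their ratio was 2.74 [1.88 to 4.06], and without the top cells the levels were 11.4 CPM in IL31RAKO and 9.12 CPM in WT. Over all T-like cells, the Gzmc class left out, a Ccl1 UMI was in 1.30% of cells in IL31RAKO and 1.48% in WT, beside 0.334% and 1.19% of macrophage-like cells, so the WT share lay close to that background.

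Xcr1, the XCL1 receptor, was almost confined to cDC1-like cells, gated on Clec9a, Cadm1, Naaa and others, which held 82.6% of its UMIs in IL31RAKO and 84.2% in WT. Its level there was 306 CPM [289 to 324] in IL31RAKO and 314 CPM [289 to 341] in WT, a ratio of 0.974 [0.881 to 1.08]. The interval leaves room for counting error only, and it holds no spread between mice. The class had 398 cells in IL31RAKO and 256 in WT, 2.72% [2.46 to 3.0] and 2.15% [1.89 to 2.42] of cells, and its cells were deeper in IL31RAKO, with a median of 10757.5 UMIs against 7139 in WT. A Xcr1 UMI was in 65.6% of these cells in IL31RAKO and 52.3% in WT. Thinned to 1000 UMIs, the shares were 21.5% [17.4 to 26.0] in IL31RAKO and 17.7% [13 to 23.3] in WT, with overlapping intervals. T-like cells, the background for this gene, had a Xcr1 UMI in 0.801% of cells in IL31RAKO and 0.561% in WT. No cell dominated, the top cell holding 18 UMIs in IL31RAKO and 23 in WT.

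Small Xcr1 counts lay elsewhere. Macrophage-like cells had 51 UMIs in IL31RAKO and 4 in WT (4.23 and 0.744 CPM), and cDC2-like cells 49 in IL31RAKO and 14 in WT (4.49 and 2.00 CPM). Neutrophil-like cells had 35 in IL31RAKO, 12 of them in 1 cell, and 4 in WT, all in 1 cell. The free-RNA barcodes held 1 Xcr1 UMI in IL31RAKO and 3 in WT.

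Ccr8, the CCL1 receptor, was spread thinly over many lymphocytes, with at most 4 UMIs in a cell in either library. The highest levels were in ILC2-like cells, at 99.8 CPM [53.1 to 171] in 64 IL31RAKO cells and 101 CPM [40.5 to 207] in 41 WT cells. These came from few UMIs, with 3 in the top ILC2-like cell of IL31RAKO and 4 in that of WT. NK-like cells had 24.7 CPM in IL31RAKO and 84.9 CPM in WT, from only 2 and 4 UMIs. Regulatory T-like cells had 51.5 CPM in IL31RAKO and 36.5 CPM in WT, a ratio of 1.41 [0.927 to 2.19]. CD4 T-like cells had 40.8 CPM in IL31RAKO and 36.0 CPM in WT, CD8 T-like cells 39.6 and 31.6 CPM, and the Gzmc class 39.0 and 40.4 CPM. The intervals of the NK-like, regulatory T-like, CD4 T-like, CD8 T-like and Gzmc classes overlap within each library, so their order is not resolved. Those of the ILC2-like class overlap those of the NK-like, regulatory T-like and Gzmc classes in both libraries, so its place above them is not resolved either. Dermal gamma-delta T-like cells had 23.2 CPM in IL31RAKO and 8.57 CPM in WT, a ratio of 2.71 [1.67 to 4.39]. The Cd7/Avil class had 18.3 CPM in IL31RAKO and 5.44 CPM in WT, a ratio of 3.37 [1.52 to 8.01], from 21 and 10 UMIs.

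Over all T-like cells Ccr8 stood at 35.0 CPM [32.1 to 38.1] in IL31RAKO and 22.0 CPM [19.9 to 24.2] in WT, a ratio of 1.59 [1.40 to 1.82]. A UMI was in 10.7% of T-like cells in IL31RAKO and 6.68% in WT, and in 3.90% and 1.92% after thinning to 1000 UMIs. Macrophage-like cells, the background for this gene, also had more in IL31RAKO, 6.56 CPM and 2.61 CPM in WT, with a UMI in 2.37% and 0.836% of cells, and the part of that background was not tested. The free-RNA barcodes held 0 Ccr8 UMIs in IL31RAKO, which allows up to 15.8 CPM, and 2 in WT. Neutrophil-like cells had 22 UMIs (11.7 CPM) in IL31RAKO and 0 in WT, where a limit of 3 counts is 9.59 CPM. The counting interval of their ratio runs from 0.909 upward and so holds 1. Ccl8, the other mouse CCR8 ligand, came from macrophage-like cells, at 4070 CPM in IL31RAKO and 2262 CPM in WT.

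**Figure D4:**
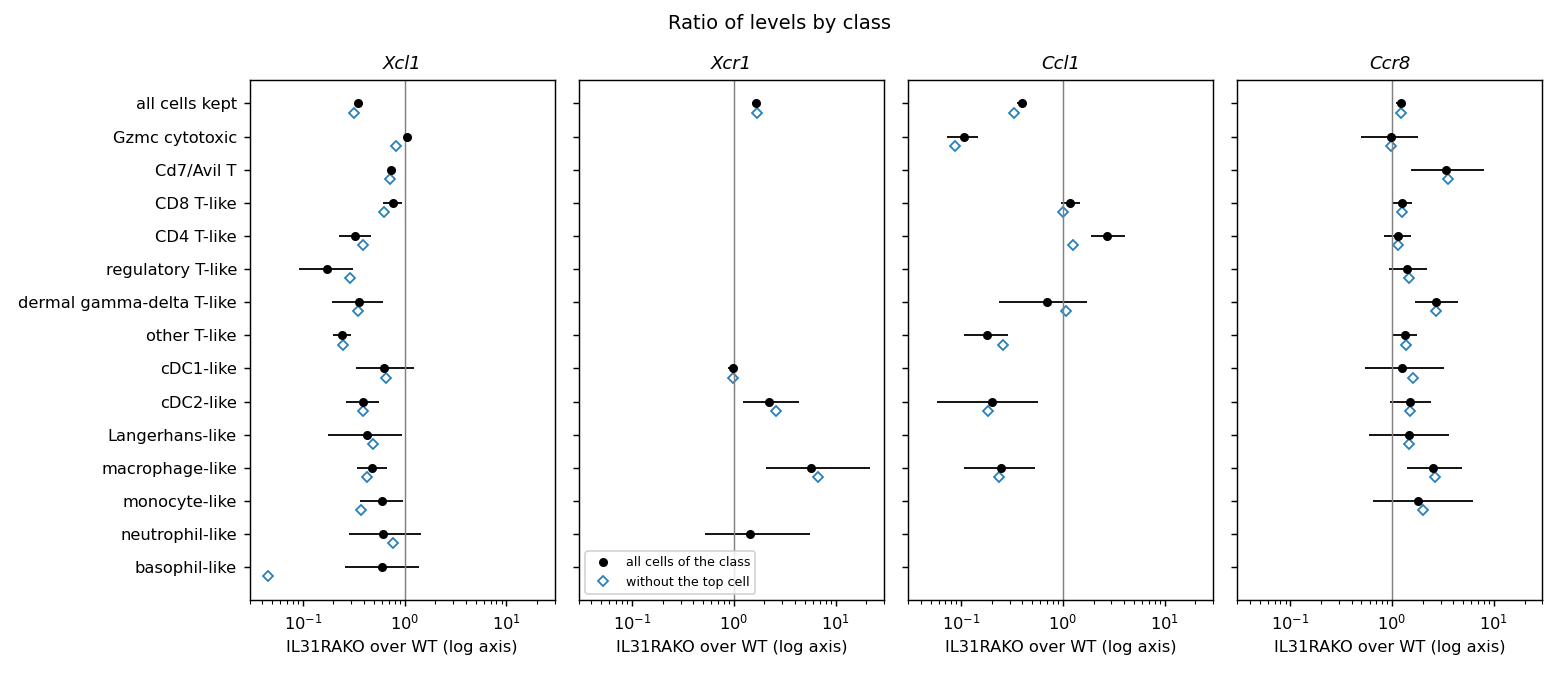
Ratio of levels, IL31RAKO over WT (log axis), for each gene and each class with enough cells and UMIs in both libraries. Black points carry exact 95% counting intervals, and blue diamonds leave out the top cell of the class in each library. Ccl1 in CD4 T-like cells has a ratio of 2.74 and a diamond far to its left.

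Genes of the surrounding pathways were read from lists, at 20 or more UMIs in a class and a fold of 1.5. In the Gzmc class, 0 of 11 activation-linked cytokine genes were higher and 3 lower, beside 9.47% of all genes higher and 13.8% lower. Those lower were Ccl5, a chemokine of cytotoxic cells, at 52.0 CPM in IL31RAKO and 192 CPM in WT, Tnfsf11, with 4 and 30 UMIs, and the growth factor gene Il2 at 65.0 and 119 CPM. Of the Ccl5 UMIs 9 of 20 in IL31RAKO and 63 of 185 in WT were in 1 cell. In WT 1 cell also held 23 of 115 Il2 UMIs and 9 of 30 Tnfsf11 UMIs. Free RNA held Ccl5 at 168 CPM in IL31RAKO and 144 CPM in WT, and Tnfsf11 at 26.3 and 25.5 CPM. For both genes it was above the class in IL31RAKO only, and its part was not tested. Of 13 genes of the early T cell receptor response, 1 was higher, Tnfrsf9, a costimulatory receptor, at 203 CPM in IL31RAKO and 79.8 CPM in WT. In the Cd7/Avil class, 6 of 11 activation genes were higher and 1 lower, beside 7.11% of all genes higher and 6.91% lower. The median log2 ratio of the list was 0.59, against about 0 for all genes. Among them Tnfsf9 was at 19.2 CPM in IL31RAKO and 4.89 CPM in WT, and Tnf at 69.8 and 41.3 CPM. Of 14 early response genes in that class 5 were higher, with Nr4a1 at 122 CPM in IL31RAKO and 63.1 CPM in WT. Free RNA held more Nr4a1, 174 CPM in IL31RAKO and 110 CPM in WT. It was also above the class in both libraries for the higher genes Egr1, Irf4, Irf8, Tnfsf9, Ccl5 and Tnfsf11, and in WT only for Dusp2. Of the Ccl5 UMIs 28 of 72 in IL31RAKO and 25 of 66 in WT were in 1 cell. Of the Irf8 UMIs in IL31RAKO 15 of 49 were in 1 cell, and of those of Dusp2 19 of 95. The part of free RNA in these counts was not tested. Xcl1 itself was lower in that class.

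In CD8 T-like cells, 0 of 12 activation genes were higher and 1 was lower, and 4 of 15 early response genes were higher, beside 5.93% of all genes higher and 5.61% lower. Cd160 stood at 76.3 CPM in IL31RAKO and 38.3 CPM in WT. Cells with a Xcl1 UMI were then set against cells of the same class without one. In CD8 T-like cells, which held 4.25% of Xcl1 UMIs in IL31RAKO and 2.06% in WT, 4 of 11 activation genes were higher in both, beside 2.90% of all genes. Ifng was at 329 CPM with and 27.5 CPM without a Xcl1 UMI in IL31RAKO, and at 280 and 33.9 CPM in WT. Ccl3, Ccl4 and Ccl5, further chemokines of activated lymphocytes, were the others. CD8 T-like cells with a Ccl1 UMI, only 22 in IL31RAKO and 23 in WT, showed 4 of 11 higher in both libraries. These were Ccl3, Ccl4, Ifng and Tnf, beside 4.84% of all genes. In the CD8 T-like class cells with a member UMI were deeper, with medians of 4135 against 3240 UMIs in IL31RAKO and 3516 against 2967.5 in WT for Xcl1. In the classes that held most Xcl1, Gzmc and Cd7/Avil, only 1 activation gene in each was higher in both libraries. So few genes cannot show whether the pattern is absent. The Gzmc contrast is also small. It set 71 cells with a Xcl1 UMI against 14 without in IL31RAKO, and 162 against 67 in WT. Median depth in WT was 4517.5 UMIs with and 1678 without. In the Gzmc class 1 of 7 activation genes, Ifng, was higher in both libraries, beside 8.76% of all genes, and of 8 early response genes 2 were higher and 3 lower. In the Cd7/Avil class 1 of 8 activation genes, Lta, was higher and 1, Ccl4, was lower, beside 0.706% of all genes higher, and of 12 early response genes 2 were higher and 1 lower. For Ccl1 in the Gzmc class 0 of 7 activation genes were higher and 1, Il2, was lower, beside 2.15% of all genes higher. Only 9 cells in IL31RAKO and 22 in WT had a Ccl1 UMI there.

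For Ccr8, 7 of 18 genes of regulatory and type 2 T cells were higher and 0 lower over all T-like cells, beside 6.24% of all genes higher and 5.17% lower. Klrg1 stood at 40.0 CPM in IL31RAKO and 15.3 CPM in WT, and Foxp3, the regulatory T cell factor, at 49.3 and 23.1 CPM. The T-like cells held more regulatory T-like cells in IL31RAKO, 552 against 378 in WT. Foxp3, Ctla4, Il2ra and Ikzf2, all in this list, are also the gate genes of that class. Within the regulatory T-like class 1 of 15 was higher, Klrg1 at 250 CPM in IL31RAKO and 159 CPM in WT, beside 8.34% of all genes higher and 6.37% lower. Of 14 other chemokine receptor genes 3 were higher over all T-like cells and 1 lower, with Ccr3 at 16.2 CPM in IL31RAKO and 5.84 CPM in WT. Within the regulatory T-like class Ccr3 was at 107 CPM in IL31RAKO and 54.7 CPM in WT, the 1 higher of 12 receptor genes. The 1 lower was Cx3cr1, with 13 UMIs in IL31RAKO and 14 in WT, a ratio of 0.619 [0.268 to 1.42]. Free RNA held more Cx3cr1 than this class, 26.3 CPM in IL31RAKO and 51.0 CPM in WT. In CD8 T-like cells 4 of the 18 regulatory and type 2 genes were higher, beside 5.93% of all genes higher and 5.61% lower. They were Klrg1, Foxp3, Tnfrsf4 and Tnfrsf9, with Foxp3 at 20.6 CPM in IL31RAKO and 10.2 CPM in WT. Free RNA was above the class in both libraries for Klrg1 and Tnfrsf4, and in WT only for Foxp3. The part of free RNA was not tested. Lower was 1 gene, the cytokine gene Il5, with 14 UMIs in IL31RAKO and 17 in WT. The counting interval of its ratio holds 1. T-like cells with a Ccr8 UMI had 0 of 18 regulatory and type 2 genes higher in both libraries, beside 0.737% of all genes. At so low a share 0 of 18 says little about these genes. Over all IL31RAKO cells 820 of the 889 with a Ccr8 UMI held only 1, so cells counted as without may also express it.

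In cDC1-like cells 1 of 16 other cDC1 genes was higher and 0 lower, beside 7.25% of all genes higher and 7.11% lower. The higher gene was Tlr3, a sensor of double-stranded RNA, at 24.0 CPM in IL31RAKO and 13.7 CPM in WT. The list holds all 8 gate genes of the class, Tlr3 among them. Cells were picked on these genes in both libraries, so their count says little about the genotypes. Of 10 chemokine receptor genes 2 were higher and 1 lower. Ccr7, which guides dendritic cells to lymph nodes, had 34 UMIs in IL31RAKO, 13 of them in 1 cell, and 3 in WT. Its level was 8.51 CPM in IL31RAKO and 1.65 CPM in WT, below free RNA at 36.8 and 25.5 CPM. Free RNA was also above the class in both libraries for the other higher gene, Ccr1, and the lower gene, Cxcr6. The part of free RNA was not tested. Cells with a Xcr1 UMI had 3 of 16 cDC1 genes higher in both libraries, the gate genes Cadm1 and Clec9a and also Itgae, beside 4.01% of all genes. Cadm1 was at 212 CPM with and 45.2 CPM without a Xcr1 UMI in IL31RAKO, and at 220 and 66.3 CPM in WT, but median depth was 12168 against 4410 UMIs in IL31RAKO and 10408 against 1795 in WT.

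Genes of the most like pattern were found by Pearson correlation of log2(CPM + 10) over 36 points, each a class in 1 library, among 10817 genes, as a description. For Xcl1 they were Nrgn (0.95), Klrb1f, Kir3dl1, Klrb1a and Kir3dl2, mostly NK receptor genes. For Ccl1 they were Klra9 (0.87), Pdzk1, Tbx21, Samd3 and Cd160. For Xcr1 they were Cldn7 (0.96), Wdr86, Tlr11, A530099J19Rik and Gm11837. For Ccr8 they were Cd27 (0.91), Il9r, 2810403A07Rik, Ppp1r16b and Nebl. The classes share libraries and depth, and the Ccl1 values rest on few cells.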

How the data were processed

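The authors deposited raw UMI counts per gene and barcode, with no normalisation, for 27998 genes and 737280 barcodes in each of 2 libraries. Cell Ranger 3.1, Seurat 3.2.2 and build mm10 are named in the submitters' processing notes, with no role given. Barcodes with 500 or more UMIs, 250 or more genes and under 10% mitochondrial UMIs were kept as cells. Doublets were kept, and removal of the cells scored highest by Scrublet (0.8% per 1000 cells, expected rate 8%) was an alternative. Others were stricter cell filters, gates with 1 UMI more, Leiden clusters, free RNA subtracted, the top cell left out and equal weight for each cell. Cells were assigned to 22 classes by marker UMIs relative to cell depth, with thresholds set after seeing the data. Cells that passed the T or Gzmc gate together with that of another lineage were set apart. Class names are rebuilt here and may not be those the study used. Counts were summed by class, and levels are CPM with exact Poisson intervals, shares have exact binomial intervals, and ratios have exact conditional intervals, all at 95%. A count of 0 was given a limit of 3 counts. Ratios needed 50 cells in each library and 20 UMIs over both. With 1 library per group there is no test. The ratio and fold steps were tested on simulated data.

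The members, lists and gates were chosen with earlier results of these data known. Named genes were the 4 members, up to 6 genes per list past a fold of 1.5 with 20 or more UMIs, ordered by fold, and the 5 most like genes per member, not all printed. Of the fixed markers, T cell receptor constant genes were among those with no row in the gene list used. Shares were also thinned to 1000 UMIs. Python 3.11.15, numpy 2.4.6, scipy 1.17.1, pandas 2.3.3 and scanpy 1.11.5 were used.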

Additional observations from a re-analysis of the deposited data

Results flagged for a closer look

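Ratios of Xcl1 pointed in opposite directions in different classes, 1.06 in the Gzmc class and 0.172 in regulatory T-like cells, and the difference between classes was not tested. The first turned to 0.817 without the top cells. Ratios of Ccl1 did so too, at 2.74 in CD4 T-like cells and 0.106 in the Gzmc class, likewise untested. Of the 94 CD4 T-like UMIs in IL31RAKO 69 were in 1 cell, and 10 cells held 95.9% of the Gzmc class UMIs in WT. Barcodes under the cell filter, which no comparison used, held Xcr1 at 12.1 CPM in IL31RAKO and 7.27 CPM in WT, a ratio of 1.67 [1.18 to 2.37].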

How the results depend on the processing

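No paired analysis was possible because each genotype had 1 library. For 13 level ratios and 5 ratios of shares, 103 values were recomputed, of which 79 stayed within the counting interval and 21 moved out of it with no change of a called direction. Of the 103, 6 lay on the other side of 1 from the reported value, 3 of them where the reported interval left out 1. Without the top cell Xcl1 in the Gzmc class changed direction (0.817), and over all cells Xcl1 was 0.316 and Ccl1 0.333. With Leiden clusters Xcl1 in the Gzmc class changed direction (0.724), Xcl1 in the Cd7/Avil class was 0.914 and Ccl1 in the Gzmc class 0.0429. With each cell weighing the same, Ccl1 over all T-like cells changed direction (0.708). On that scale Xcl1 was 0.401 over all cells, 1.24 in the Gzmc class and 0.825 in the Cd7/Avil class, Ccl1 0.357 over all cells, 0.312 in the Gzmc class and 1.47 in CD8 T-like cells, Xcr1 1.20 in cDC1-like cells, where the reported 0.974 lay below 1, and Ccr8 1.38 over all cells and 1.83 over T-like cells. With doublets removed Ccl1 over all cells was 0.255. Under 5% mitochondrial UMIs Ccl1 was 0.0600 in the Gzmc class and 1.53 over T-like cells. With free RNA subtracted Xcr1 was 9.70 and Ccr8 3.48 over all cells, and Ccr8 was 2.60 over T-like and 1.71 in CD8 T-like cells, on 3 or fewer free-RNA UMIs. That setting gave no value for Xcl1 and Ccl1 over all cells or Ccl1 over T-like cells. Thinned to 2000 UMIs the share of T-like cells with Ccr8 had a ratio of 1.56, against 2.03 at 1000. That depth also turned the share ratio of Xcl1 in the Gzmc class to 0.955, against 1.04, and that of Ccl1 over T-like cells to 1.21, against 0.895. At 50 or more UMIs in place of 20, the share of genes past a fold of 1.5 in the Gzmc class was 4.34% higher and 7% lower, against 9.47% and 13.8%. The cause of these shifts was not tested.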
